A study of Caenorhabditis elegans with 3 samples.

Results

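The pals genes and the chitinase-like (chil) genes of the nematode Caenorhabditis elegans were measured in adult hermaphrodites carrying embryos. Members were all genes whose symbol starts with pals- or chil- and that had an array feature assigned to a single gene. They numbered 52, namely 24 pals and 28 chil genes, of 15112 single genes and of 19300 genes and unnamed features tested. RefSeq lists 39 pals and 28 chil genes, so every listed chil gene was included, and 15 pals genes (pals-8 to pals-12, pals-15 to pals-21, pals-36, pals-37 and pals-40) were not analysed here.

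The data came from 3 two-colour arrays. Channel 2 of each held RNA of adult hermaphrodites with embryos, labelled TP10, from preparation 1, 2 or 3. Channel 1 held RNA of a mixed reference labelled as wild type, whose make-up the labels do not give. The labels give no strain, genotype, age or treatment for TP10, and do not say what TP10 or the number after "emb" stands for. Every value below is a log2 ratio of TP10 over the reference, centred so that the median of each array is 0, and so describes a difference and not a level. No dye is named in the labels. The direction is likely, because the descriptions name TP10 first and TP10 is the second channel, but it is not settled. Were the ratio turned round, each lower value, share and rank given here would be a higher one of the same size. As read here, all 8 measured oocyte and germ line markers were higher in TP10, with means from 1.10 to 2.73. These markers were chosen with earlier results of these data known, so their values do not settle the direction. In RNA of whole animals, fewer cells of a type and less RNA per cell cannot be told apart.

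The pals genes take their name from a protein signature (ALS2CR12) that most members have in common. Several of them are induced when intestinal cells are infected with microsporidia or a virus, a programme called the intracellular pathogen response. pals-22 is a repressor of that response and pals-25 an activator that opposes it, and pals-5 serves as its usual reporter. The chil genes encode relatives of chitinases. Some of them, chil-27 and chil-28 foremost, are induced in the epidermis on recognition of oomycetes, pathogens that attach to the cuticle.

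In the direction read here, both families held more genes that were lower in TP10 than genes that were higher. Of 24 pals genes, 13 were lower and 1 was higher at an adjusted p under 0.05 (limma, Benjamini-Hochberg over all 19300), and 10 did not pass. Of 28 chil genes, 14 were lower, 1 was higher and 13 did not pass. For pals this was 54.2% lower and 4.17% higher and for chil 50% lower and 3.57% higher, against 21.9% lower and 22% higher (43.9% in either direction) over all 19300 genes and unnamed features. The median log2 ratio was -0.55 for pals and -0.42 for chil, beside 0.01 for all tested. Lower by at least 2-fold were 10 of 24 pals and 7 of 28 chil genes, beside 8.30% of all tested. No member was higher by that much, beside 8.29% of all tested.

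**Figure D1:**
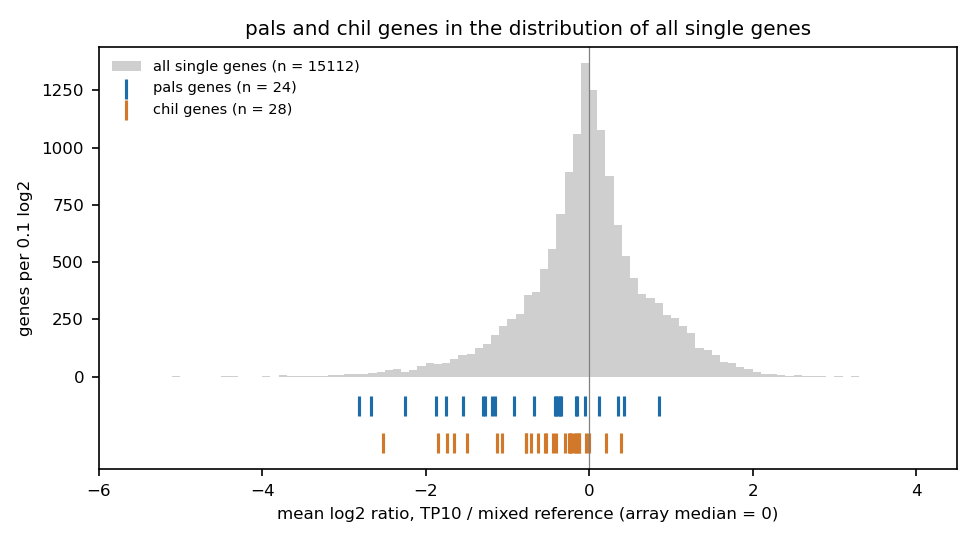
Mean log2 ratio of TP10 over the mixed reference (x axis, array median at 0) for 15112 single genes as a histogram (y axis, genes per 0.1 log2), with each of 24 pals and 28 chil genes as a tick below it. The ticks run from -2.81 to 0.85 for pals and from -2.52 to 0.39 for chil, and 45 of the 52 lie below 0.

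The arrays did not all show the families alike. The median of the pals genes was -0.77 on array 1, -0.63 on array 2 and -0.46 on array 3, and that of the chil genes was -0.42, -0.36 and -0.36 in the same order. The ratios of all genes were also spread more narrowly on array 3 (SD 0.67) than on arrays 1 and 2 (SD 0.89 and 0.85). Of the 52 members, 42 had the same sign on all arrays, beside 12983 of all 19300 genes and unnamed features. The exception of size was pals-39, at -5.37 and -4.77 on arrays 1 and 2 and 1.70 on array 3. No other gene or feature of the 19300 had a range over the arrays as wide as its 7.07 log2, and the widest range of any other member was 1.21. Its mean of -2.81 ± 3.92 (SD, n = 3) had an adjusted p of 0.0490. This call was lost when preparation 1 was left out (adjusted p = 0.354), and when preparation 2 was left out (adjusted p = 0.0789). It was also lost with features kept apart, values on at least 2 arrays, array weights, quantile normalization, scaling to one spread, robust variance estimates and the unmoderated test (adjusted p from 0.0517 to 0.464). It was kept on the deposited values (adjusted p = 0.0451), after mean centring (adjusted p = 0.0430) and without preparation 3, where the mean was -5.07. Without pals-39, 12 of 23 pals genes were lower, 9 of them by at least 2-fold, with a median of -0.42.

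**Figure D2:**
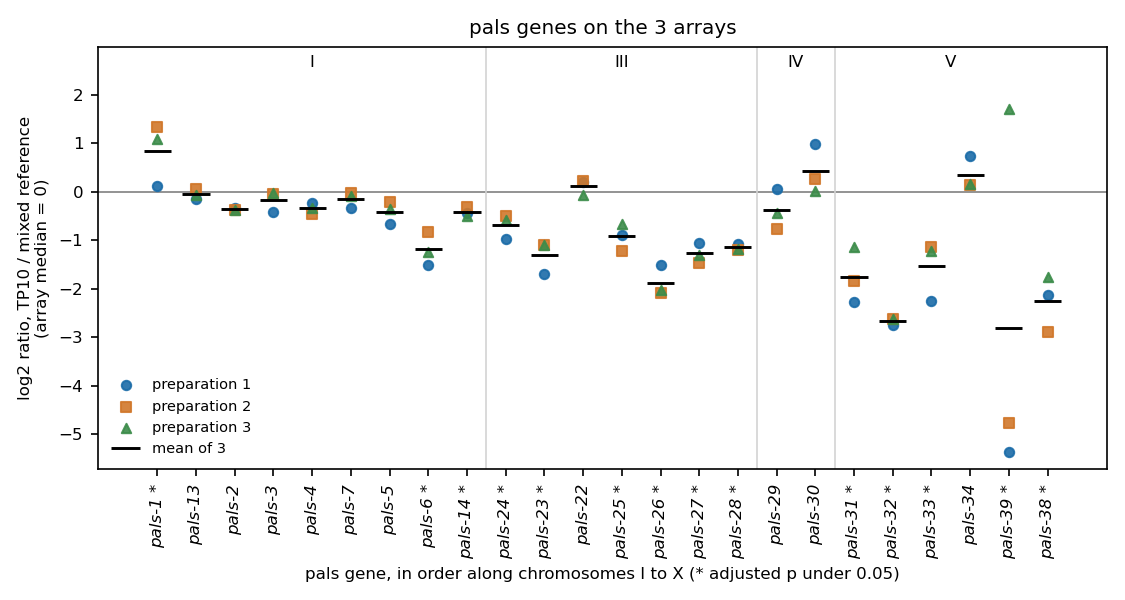
Log2 ratio of TP10 over the mixed reference (y axis) for each of 24 pals genes in order along the chromosomes (x axis), with 1 point for each of the 3 preparations, a bar at their mean and a star at an adjusted p under 0.05. On chromosome I, the mean of pals-1 lies above 0, that of pals-6 at -1.19, and those of the other measured members between -0.42 and -0.05. Most members on chromosomes III and V lie well below 0, and the preparation 3 point of pals-39 stands apart.

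Among the regulators, pals-25 was lower and pals-22 did not pass. pals-25 had log2 ratios of -0.89, -1.21 and -0.65 on arrays 1, 2 and 3, a mean of -0.92 ± 0.28 (SD, n = 3), or 1.89-fold lower, with an adjusted p of 8.67e-04. pals-22 stood at 0.21, 0.23 and -0.06, a mean of 0.12 ± 0.16 (adjusted p = 0.526). RefSeq places these genes next to each other on chromosome III. The values of the repressor and the activator did not overlap, but how common this is among neighbouring genes was not examined. The ratio of pals-25 was below that of pals-22 by 1.10, 1.44 and 0.59 log2 on arrays 1, 2 and 3, a difference that was not tested. The reporter gene pals-5 was below 0 on each array, at -0.66, -0.21 and -0.36, but its mean of -0.41 ± 0.23 did not pass (adjusted p = 0.0502). It passed once the arrays were quantile-normalized (adjusted p = 0.0279) or brought to one spread (adjusted p = 0.0383). The 2 array features of pals-5 gave means of -0.35 and -0.46. pals-16, pals-17 and pals-20, which are also known to regulate the response, are among the 15 genes not analysed here.

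Among pals genes of 1 sign on all arrays, the lowest 2 were on chromosome V. pals-32 stood at -2.75, -2.62 and -2.63, a mean of -2.67 ± 0.07 or 6.35-fold lower (adjusted p = 1.43e-06). With this mean, pals-32 ranked within the lowest 0.549% of all genes and features tested. pals-38 stood at -2.12, -2.90 and -1.75 with a mean of -2.26 ± 0.58, or 4.78-fold lower (adjusted p = 2.28e-05). pals-31, at -2.26, -1.84 and -1.14, averaged -1.75 ± 0.57 (adjusted p = 8.71e-05), and pals-33, at -2.26, -1.14 and -1.21, averaged -1.54 ± 0.62 (adjusted p = 2.52e-04). Both were lowest on array 1, and in neither did any array come near 0. pals-39 also lies on this chromosome, in one locus with pals-38, with only arrays 1 and 2 below 0. The sixth measured gene there, pals-34, was above 0 at 0.75, 0.15 and 0.16 and did not pass (adjusted p = 0.112). The function of these single members is not established well enough to be given here.

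On chromosome III, pals-26, pals-27 and pals-28 form one locus, and all 3 were lower. pals-26 stood at -1.51, -2.09 and -2.02, a mean of -1.87 ± 0.32 or 3.66-fold lower (adjusted p = 1.65e-05). pals-27 averaged -1.27 ± 0.21 and pals-28 averaged -1.15 ± 0.07, or 2.41-fold and 2.22-fold lower (adjusted p = 9.20e-05 and 1.13e-04). The 1 measured gene lying between them, B0284.3, was higher at 0.47 ± 0.12, and the 18 measured genes within 10 genes on either side of the locus had a median of 0.35, with 8 higher and 2 lower. The members thus differed in sign from most of the called genes around them. On chromosome III, 35.5% of single genes outside both families were higher. In the other measured locus of this chromosome, pals-23 averaged -1.30 ± 0.35 and pals-24 averaged -0.68 ± 0.26 beside pals-25 and pals-22 (adjusted p = 1.49e-04 for pals-23 and 0.00455 for pals-24). The 3 other measured genes inside it went different ways, 1 of them higher and 1 lower, around a median of 0.06. Some low members elsewhere lay among genes that were more often lower than higher. Around pals-31, 7 of 18 measured genes were lower and 0 higher, and around chil-28, 7 of 16 and 0. Around the locus of pals-38 and pals-39, 8 of 18 were lower and 3 higher. Around pals-32, 2 of 17 were lower and 1 higher, and around pals-33, 2 of 14 and 4.

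The pals genes of chromosome I stood closer to 0. The 14 genes from pals-13 to pals-15 form the most crowded locus, and the 8 of them that were measured had a median of -0.35. Only pals-6 was lower by over 2-fold, at -1.51, -0.82 and -1.24 with a mean of -1.19 ± 0.35 (adjusted p = 2.51e-04). pals-14 was lower at -0.42 ± 0.10 (adjusted p = 0.0343), a call that ended when any 1 preparation was left out (adjusted p from 0.0640 to 0.163). The other 6, pals-2, pals-3, pals-4, pals-5, pals-7 and pals-13, ranged from -0.41 to -0.05. pals-1, which lies elsewhere on chromosome I, was the 1 higher pals gene. Its log2 ratios were 0.12, 1.34 and 1.10, a mean of 0.85 ± 0.64 or 1.80-fold higher (adjusted p = 0.00904), so array 1 stood far below the other two. On chromosome IV, pals-29 and pals-30 averaged -0.38 ± 0.42 and 0.43 ± 0.51, and neither passed (adjusted p = 0.112 and 0.0976). pals-29 passed as lower without preparation 1 (adjusted p = 0.0178), and pals-30 as higher without preparation 3 (adjusted p = 0.0303).

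Set side by side, 11 of 13 pals genes on chromosomes III and V were lower with a median of -1.30, and 2 of 9 on chromosome I with a median of -0.34. Without pals-39, chromosomes III and V gave 10 of 12 and a median of -1.28. On chromosome IV, 0 of 2 were lower, with a median of 0.03. Of the 14 pals genes on chromosome III, 7 were not analysed here. Pooling chromosomes III and V was not planned, and the difference between chromosomes was not tested. Single genes outside both families had medians of 0.10 on chromosome I, 0.18 on III and -0.08 on V, and 21.1%, 19.3% and 25.2% of them were lower. Each array carried 2 features for most pals genes of chromosome I. In the 6 genes with 2 complete features the means of the features differed by 0.02 to 0.47 log2, most in pals-2, at -0.12 and -0.60. When limma was run on features kept apart, pals-2, pals-5 and pals-14 each had 1 feature that passed (adjusted p = 0.00700, 0.0343 and 0.0208). The other feature of each did not (adjusted p = 0.518, 0.148 and 0.0919). For pals-4 and pals-6 the second feature had a value on 1 array only, 1.20 and 0.42 as deposited, of opposite sign to the mean of the feature used. Genes of such recently duplicated families can share sequence, and whether the features tell the copies apart was not tested.

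**Figure D3:**
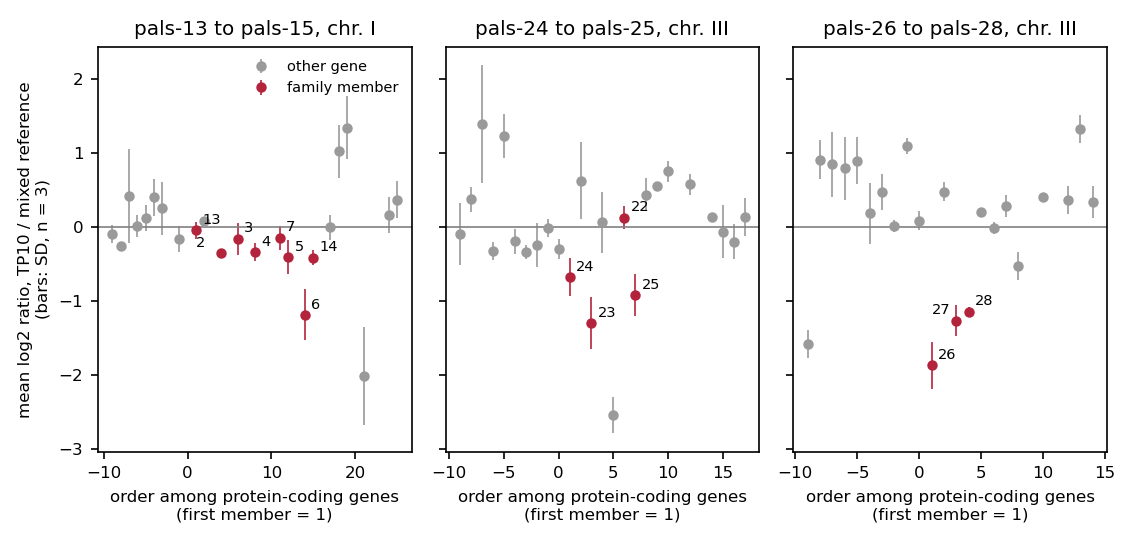
Mean log2 ratio of TP10 over the mixed reference (y axis, bars are SD, n = 3) by order among protein-coding genes (x axis) for 3 pals loci with up to 10 genes on either side, pals members labelled by number and other genes in grey. The measured members of the chromosome I locus lie between -1.19 and -0.05, and pals-26, pals-27 and pals-28 lie at -1.15 or below among genes with a median of 0.35.

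Among the chil genes, the oomycete response gene chil-28 was the lowest. It stood at -2.61, -2.57 and -2.39, a mean of -2.52 ± 0.12 or 5.75-fold lower (adjusted p = 1.93e-06), within the lowest 0.694% of all tested. RefSeq classes chil-28 as a pseudogene. chil-27, the other gene commonly used as a reporter of that response, stood at -0.08, -0.10 and -0.30 with a mean of -0.16 ± 0.12 and did not pass (adjusted p = 0.401). The values of these 2 genes did not overlap, and their difference was not tested.

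**Figure D4:**
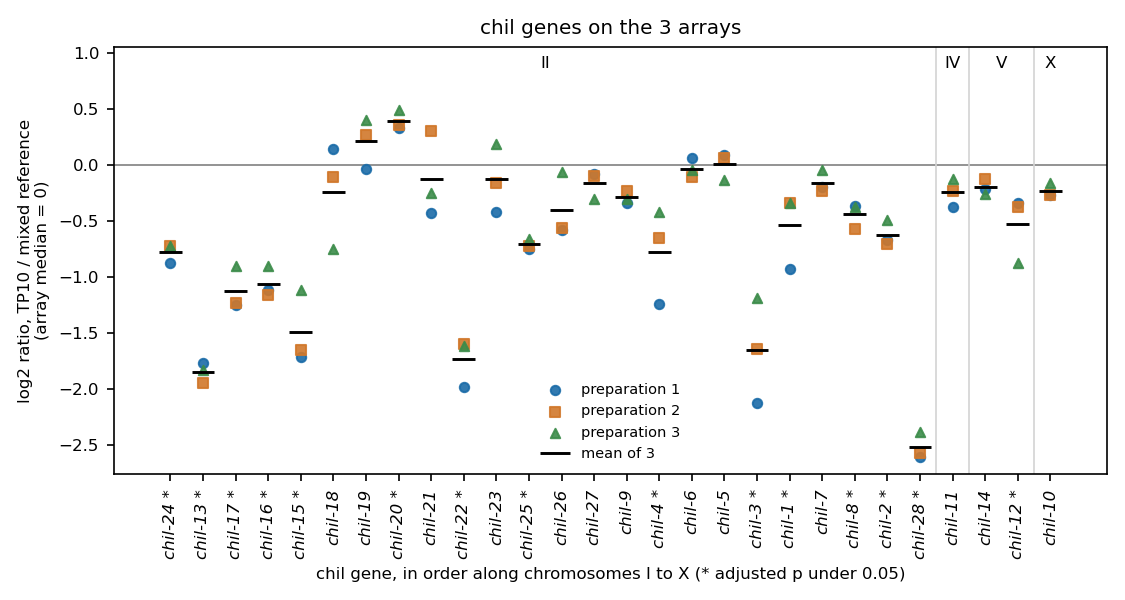
Log2 ratio of TP10 over the mixed reference (y axis) for each of 28 chil genes in order along the chromosomes (x axis), with 1 point for each of the 3 preparations, a bar at their mean and a star at an adjusted p under 0.05. The lowest points belong to chil-28, and chil-13, chil-22, chil-3 and chil-15 follow.

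Of the 28 chil genes, 24 lie on chromosome II, 22 of them in a pair of loci of 13 and 9 genes. The first locus runs from chil-13 to chil-27, and its members had means from -1.85 to 0.39 with a median of -0.40. At its start, chil-13, chil-17, chil-16 and chil-15 follow one another with no other protein-coding gene between them, and all 4 were lower. chil-13 stood at -1.77, -1.95 and -1.83 with a mean of -1.85 ± 0.09, or 3.61-fold lower (adjusted p = 8.68e-06). chil-15 stood at -1.71, -1.65 and -1.12 with a mean of -1.49 ± 0.33, or 2.82-fold lower (adjusted p = 5.96e-05). chil-17 and chil-16 averaged -1.13 ± 0.19 and -1.06 ± 0.14, with ratios on array 3 that were equal to 2 decimals (-0.91). Beyond this run the genes chil-18, chil-19, chil-20 and chil-21 came between -0.24 and 0.39. chil-22, which follows chil-21, was again low, at -1.99, -1.60 and -1.62 with a mean of -1.73 ± 0.22, or 3.33-fold lower (adjusted p = 1.65e-05).

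The 1 higher chil gene was chil-20, a pseudogene in RefSeq, at 0.33, 0.36 and 0.49 with a mean of 0.39 ± 0.09 (adjusted p = 0.0430). That call ended when any 1 preparation was left out (adjusted p from 0.0522 to 0.195). Of the rest of the first locus chil-25 was lower at -0.71 ± 0.04 (adjusted p = 0.00196). chil-23 and chil-26 did not pass (-0.13 ± 0.30 and -0.40 ± 0.29), and chil-26 passed without preparation 3 (adjusted p = 0.0334). The 14 measured genes within 10 genes on either side had a median of 0.21, with 4 higher and 3 lower. Single genes outside both families on chromosome II had a median of 0.05, with 26% higher and 22.8% lower.

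The second locus runs from chil-9 to chil-2 and also held high contrasts between neighbours. chil-3 stood at -2.12, -1.65 and -1.19 with a mean of -1.65 ± 0.47, or 3.14-fold lower (adjusted p = 7.05e-05). The adjacent chil-5 and chil-6 stood at 0.00 ± 0.12 and -0.03 ± 0.09 and did not pass (adjusted p = 0.988 and 0.871). chil-4, at -1.25, -0.66 and -0.42, averaged -0.78 ± 0.42 (adjusted p = 0.00492), and chil-2 averaged -0.62 ± 0.12 (adjusted p = 0.00471). chil-1 and chil-8 were lower at -0.54 ± 0.34 and -0.44 ± 0.11 (adjusted p = 0.0215 and 0.0281). The chil-1 call ended without preparation 1 (adjusted p = 0.0994), and the chil-8 call when preparation 2 was left out (adjusted p = 0.189) or preparation 3 was (adjusted p = 0.0803). chil-7 and chil-9 averaged -0.16 ± 0.10 and -0.29 ± 0.06 and did not pass. Between chil-1 and chil-7 RefSeq places old-1, which encodes a receptor tyrosine kinase known to act in the oomycete response. It was lower as well, at -0.64, -0.56 and -0.50 with a mean of -0.56 ± 0.07 (adjusted p = 0.00753).

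**Figure D5:**
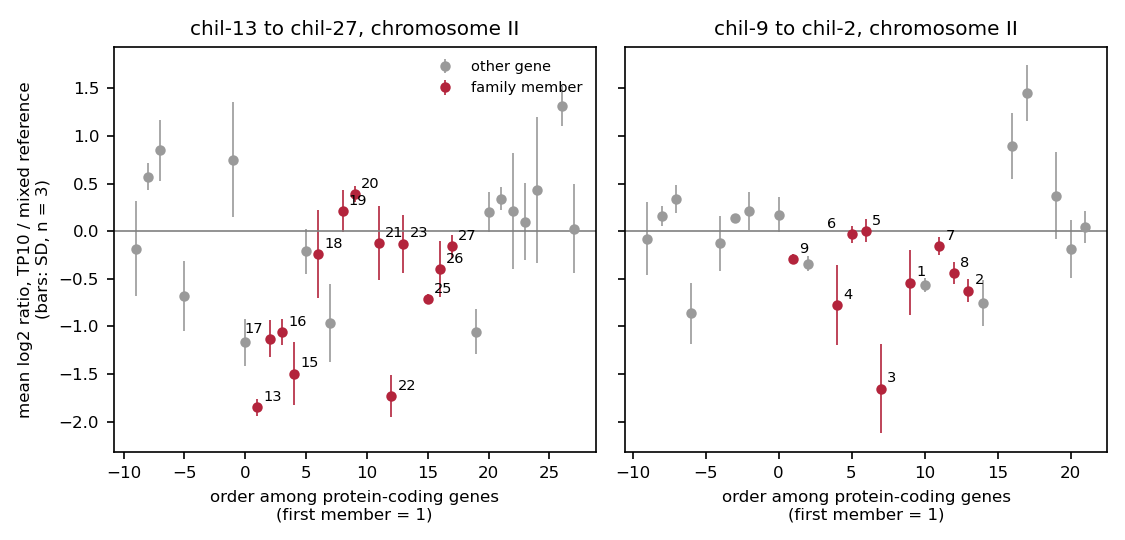
Mean log2 ratio of TP10 over the mixed reference (y axis, bars are SD, n = 3) by order among protein-coding genes (x axis) for both chil loci of chromosome II with up to 10 genes on either side, chil members labelled by number and other genes in grey. Low members such as chil-13, chil-22 and chil-3 lie within a few genes of members near 0 such as chil-19, chil-5 and chil-6.

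The 6 remaining chil genes are scattered singly. chil-28 and chil-24 lie elsewhere on chromosome II, and chil-24 was lower at -0.88, -0.72 and -0.72 with a mean of -0.77 ± 0.09 (adjusted p = 0.00125). Of the 4 outside chromosome II, chil-12 was lower at -0.53 ± 0.30 (adjusted p = 0.0200), a call that ended without preparation 3 (adjusted p = 0.181). chil-10, chil-11 and chil-14 ranged from -0.24 to -0.20 and did not pass.

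Other genes of the same responses were compared through a list of 18, of which 13 were measured. Of these, 8 (61.5%) were lower and 1 (7.69%) was higher, beside 21.9% and 22% of all tested, and the median was -0.56. The list was chosen with earlier results of these data known, so these shares are a description only. The gene old-1, given above with the second chil locus, is among the 8. Genes of the cullin-based ubiquitin ligase that acts in the intracellular pathogen response were among the lower ones. The Skp1-related gene skr-5 averaged -2.41 ± 0.24, or 5.33-fold lower (adjusted p = 3.37e-06), skr-3 averaged -1.30 ± 0.07, and the F-box gene fbxa-158 averaged -0.96 ± 0.09 (adjusted p = 5.46e-05 and 3.42e-04). The cullin gene cul-6 was lower at -0.42 ± 0.13 (adjusted p = 0.0337), a call that ended when any 1 preparation was left out (adjusted p from 0.0926 to 0.0958). The purine nucleoside phosphorylase gene pnp-1, a repressor of the response as pals-22 is, was lower at -2.22 ± 0.13, or 4.67-fold (adjusted p = 3.54e-06). The lower genes thus included 1 repressor as well as ubiquitin ligase genes, while the repressor pals-22 did not pass. A shift of the response as a whole was not tested. zip-1, a transcription factor of the response, averaged -0.68 ± 0.17 (adjusted p = 0.00317), and sqst-1, an autophagy receptor gene, averaged -1.41 ± 0.30 (adjusted p = 7.22e-05). The higher gene was sdz-6, at 1.31 ± 0.29 (adjusted p = 1.05e-04). drh-1, which encodes a RIG-I-like sensor of viral RNA, stood at 0.04 ± 0.25, and the infection-induced genes F26F2.1, F26F2.3 and F26F2.4 at -0.34 ± 0.11, 0.15 ± 0.05 and 0.00 ± 0.28, and none of these 4 passed.

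Of 10 measured genes of chitin synthesis, breakdown and eggshell binding, 5 (50%) were higher and 2 (20%) lower, beside 22% and 21.9% of all tested, and the median was 0.44. Both lower calls were of chitinase genes. The higher ones were the chitin-binding eggshell genes cbd-1 at 2.57 ± 0.58 and cpg-1, 5.29-fold higher, the eggshell chitin synthase gene chs-1 at 1.85 ± 0.31, and the chitinase genes cht-1 at 1.09 ± 0.53 and cht-3 at 0.61 ± 0.04. The lower ones were the chitinase genes cht-2 at -1.12 ± 0.31 and cht-6 at -0.40 ± 0.14. The 7 had adjusted p-values from 1.03e-05 to 0.0432, and the cht-6 call ended when any 1 preparation was left out (adjusted p from 0.0847 to 0.175). This list was also chosen with earlier results of these data known, and its difference from the chil genes was not tested.

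Markers of the intestine and epidermis, where genes of these families are known to act, are set beside the same background. It was 22% of all tested higher and 21.9% lower. Markers of oocytes, germ line and yolk follow for the labelled stage. These lists too were chosen with earlier results of these data known. Of 9 measured intestinal markers 5 were higher and 3 lower, the median was 0.54 and the array medians ran from 0.28 to 0.62. The genes act-5, ges-1, vha-6, mtl-2 and cpr-6 were the higher ones, while the intestinal GATA factor genes elt-2 and elt-7 and the filament gene ifb-2 were lower. Of 10 epidermal markers 2 were higher and 5 lower, the median was -0.64 and the array medians ran from -0.78 to -0.49. The lower ones were the collagen genes rol-6 at -3.75 ± 0.45, col-10 at -2.73 ± 0.30, dpy-13 at -2.04 ± 0.39 and dpy-7 at -0.95 ± 0.37, and elt-3, a GATA factor gene, at -0.99 ± 0.23. The higher ones were the adult collagen gene col-19 at 1.97 ± 0.14 and lin-26, an epidermal transcription factor gene, at 0.71 ± 0.50. The 8 oocyte and germ line markers (rme-2, puf-5, glh-1, pgl-1, oma-1, oma-2, cbd-1 and him-3) had a median of 2.14. Of 3 yolk protein genes, vit-2 was higher at 1.00 ± 0.27, and vit-5 and vit-6 did not pass. The part of these shifts in the values of the pals and chil genes was not tested.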

How the data were processed

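The authors deposited a log2 ratio between channels for each of 20000 features on 3 arrays. Its scale was read from the deposited values, of which at least 99.98% per array, taken as powers of 2, came out at whole thousandths (within 0.01 thousandths). The deposited log2 ratios had array medians of -0.00868, 0.0172 and 0.0101, close to 0. Whether the authors had centred them, and any background correction or spot filter, is not given in the sources used here. Spot intensities were not used here, so which features exceeded background is unknown, and precision is limited by having 3 arrays.

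Names came from the platform annotation (15655 features with 1 gene, 198 with several, 4147 not listed), updated through gene identifiers to RefSeq WBcel235 for 15569 features. A value on all 3 arrays was required (19748 features), and features of a gene were averaged. Each array was centred on its median. Gene means were then compared with 0 by the moderated test of limma 3.58.1 under R 4.3.3 (two-sided, lmFit and eBayes), adjusted by Benjamini-Hochberg over 19300 genes and unnamed features, with a threshold of 0.05. The code was tested on simulated data. The reference has no replicates of its own, no swap of dyes is named, and separate cultures for the preparations are not stated. The p-values therefore measure only spread between preparations, with the variance of each gene drawn by eBayes towards that of all tested. Each array carries its own date, so date and preparation cannot be told apart.

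RefSeq gave gene order only. Members with at most 10 other protein-coding genes between them were taken as 1 locus. Every member is accounted for, those past the threshold and the known regulators and reporters in full, and pathogen response and chitin list members past the threshold are named. Members and lists were chosen with earlier results of these data known.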

Additional observations from a re-analysis of the deposited data

How the results depend on the processing

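The count of pals genes past the threshold (14) was 12 to 16 and that of chil genes (15) was 13 to 15 in the following settings. They were deposited values, mean centring, quantile normalization, scaling to a common spread, values on at least 2 arrays and features kept apart. The rest were robust eBayes, array weights, leaving out 1 preparation and platform symbols alone. For pals only, pals-39 was also left out (13), a setting chosen after seeing the data. With features kept apart, 15 pals and 15 chil features passed, since counts and medians there were taken over features and not genes. Without 1 preparation the count was 12 to 14 for pals, 13 for chil each time, 8 for the pathogen response list (9 in all) and 6 or 7 for the chitin list (7), and 12 of 14 called pals and 11 of 15 called chil genes passed each time. The unmoderated one-sample test, on 2 residual degrees of freedom, called 1 of 19300 genes and features and 0 pals, 0 chil, 0 pathogen response and 0 chitin genes, while 13 of 24 pals genes, 15 of 28 chil genes and 6829 of all 19300 had an unadjusted p under 0.05. The chil median (-0.42) was -0.41 to -0.36 without 1 preparation, and the pals median was -0.64 to -0.54 in every setting other than features kept apart (-0.42) and without pals-39 (-0.42). pals-2, pals-4 and pals-5, just short of the threshold, passed after quantile normalization (adjusted p = 0.0357, 0.0475 and 0.0279). With features kept apart, one of the 2 features of pals-13 (mean -0.05) was at 0.04, neither past the threshold. Among members compared as single genes, signs changed in 5 chil genes that passed in no setting: chil-5 turned to -0.0160 after quantile normalization, to -0.0163 after scaling and to -0.00885 with array weights. Without 1 preparation, chil-5 ranged from -0.0371 to 0.0751, chil-6 from -0.0811 to 0.00503, chil-18 from -0.431 to 0.0182, chil-21 from -0.343 to 0.0259 and chil-23 from -0.287 to 0.0143. No paired analysis was possible because the arrays form a single group. With deposited medians near 0, a shift shared by most genes would not be seen in any setting.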
